A study of Homo sapiens with 15 samples.

Results

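The SF3A and SF3B complexes are the protein core that turns the U2 small nuclear ribonucleoprotein (U2 snRNP) into its working form. The 10 genes that encode their subunits were taken by symbol: SF3A1, SF3A2 and SF3A3 for SF3A, and SF3B1, SF3B2, SF3B3, SF3B4, SF3B5, SF3B6 and PHF5A for SF3B. All 10 stood in both deposited count tables, of 62703 genes in the HEK293T table and 35595 in the HuCCT1 table, and all 10 passed the filter on low counts in both lines.

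RNA was sequenced after ribosomal RNA depletion from established human lines: HEK293T, derived from embryonic kidney and transformed with viral oncogenes, and HuCCT1, from a bile duct carcinoma. The HEK293T libraries were labelled SNRPD2KO, PUS7KO or Ctrl and the HuCCT1 libraries SNRPD2KO or Ctrl, with 3 libraries in each of the 5 groups, where KO marks a CRISPR-Cas9 knockout and Ctrl its control. The product of SNRPD2 is SMD2, one of the Sm proteins that ring spliceosomal RNAs, and PUS7 encodes an enzyme that makes pseudouridine in RNA. Whether a knockout line was a pool or a single clone, and whether the replicates were separate cultures, is not given in the sources used here, so p-values measure the spread between these libraries, which may be technical.

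During splicing the U2 snRNP pairs with the branch site of an intron. SF3A and SF3B hold that pairing in place, SF3B1 clasps the helix while PHF5A lines the pocket for the branch adenosine, and the Sm ring sits on the same particle. The study asked how SMD2 and pseudouridine bear on splicing. The counts give the mRNA level of each subunit and say nothing of protein, of assembled particles or of splicing itself.

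The HEK293T libraries held between 10080682 and 11270267 counts each where labelled SNRPD2KO, between 10022912 and 11181703 where labelled PUS7KO, and between 7944276 and 9202622 as Ctrl. The HuCCT1 libraries were deeper, with 15580342 to 16772238 counts where labelled SNRPD2KO and 13776166 to 16795618 as Ctrl. One noncoding RNA, RN7SL1, took 15.2% to 20.5% of the counts in HEK293T and 1.02% to 2.21% in HuCCT1. Levels are given as CPM, a count relative to its library total, scaled within each line by TMM factors that offset differences in composition. The 7 markers listed for HuCCT1 are epithelial genes such as KRT7 and KRT19. They summed to 11815 to 12760 CPM in HuCCT1 and 213.8 to 372 CPM in HEK293T. The HEK293T list summed to 512 to 597 CPM over 6 genes in HEK293T and 177 to 210.2 CPM over 5 genes in HuCCT1. IGF2BP1 made up most of the HEK293T sum, at group means of 369.3 to 419.8 CPM. CDH2 went the other way, at group means of 70.9 to 94.3 CPM in HEK293T and 170.6 to 196.3 CPM in HuCCT1. It made up most of the HuCCT1 sum. The kidney gene PAX2 stayed under 1 CPM in HEK293T.

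PUS7 mRNA was lower in the libraries of its own knockout, at 13.7, 18.1 and 16.3 CPM in PUS7KO and 26.5, 26.0 and 27.0 CPM in Ctrl (log2 fold change -0.72, adjusted p = 6.7e-05). SNRPD2 mRNA went against its label in both lines. It averaged 280.4 ± 31.9 CPM in the HEK293T libraries labelled SNRPD2KO and 182 ± 13.6 CPM in Ctrl (0.62, adjusted p = 4.9e-05), and 288 ± 29.4 CPM in the HuCCT1 libraries labelled SNRPD2KO and 155 ± 7.30 CPM in Ctrl (0.90, adjusted p = 1.8e-06; SD, n = 3 each). In PUS7KO it was higher than in Ctrl as well (0.52, adjusted p = 0.00034). The sample descriptions pair the libraries labelled SNRPD2KO with table columns whose names begin with C, and those labelled Ctrl with columns whose names begin with S. In HEK293T, SNRPD2 did not pass between the libraries labelled SNRPD2KO and PUS7KO (log2 fold change 0.11, edgeR quasi-likelihood test, adjusted p = 0.563). Of all genes, 4.77% passed in that comparison, against 53.3% for SNRPD2KO against Ctrl and 49.4% for PUS7KO against Ctrl. Whether the names were exchanged, or whether an edited gene still makes RNA, was not tested, and gene counts alone do not settle it. Each direction below is therefore that of the labelled groups, and each sign between SNRPD2KO and Ctrl would turn if the names had been exchanged, while the PUS7KO libraries would then have been set against a different group.

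Promoter sequences are shown for 4 subunits whose mRNAs moved apart. SF3B1 and SF3B4 were lower in the libraries labelled SNRPD2KO than in Ctrl in both lines, and SF3A3 and SF3B5 were higher in HEK293T. The windows are the 250 bases before the RefSeq start in GRCh38.p14, written on the strand of the gene, 5′ to 3′; for SF3A3 the 53 bases that lie within the gene as deposited were left out. All 4 genes lie on the minus strand. Capitals mark a match, on either strand, to CCGGAAG (an ETS core), CACGTG (an E-box), CCAAT (bound by NF-Y) or TATAAA (the TATA box). They also mark, on either strand, the motif bound by NRF1 (GCGCA, any base, then GCGC), and no marked match overlapped another.
SF3B1 chr2:197435094-197435343: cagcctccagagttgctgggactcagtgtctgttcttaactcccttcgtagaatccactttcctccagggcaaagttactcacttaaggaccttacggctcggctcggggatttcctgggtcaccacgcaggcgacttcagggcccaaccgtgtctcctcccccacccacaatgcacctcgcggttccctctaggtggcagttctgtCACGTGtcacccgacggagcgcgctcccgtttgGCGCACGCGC
SF3B4 chr1:149927804-149928053: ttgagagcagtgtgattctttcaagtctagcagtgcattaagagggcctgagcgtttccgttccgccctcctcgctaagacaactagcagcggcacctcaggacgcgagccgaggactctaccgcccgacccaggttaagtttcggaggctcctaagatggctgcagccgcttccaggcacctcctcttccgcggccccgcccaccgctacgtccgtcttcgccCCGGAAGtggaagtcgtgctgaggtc
SF3A3 chr1:37990076-37990272: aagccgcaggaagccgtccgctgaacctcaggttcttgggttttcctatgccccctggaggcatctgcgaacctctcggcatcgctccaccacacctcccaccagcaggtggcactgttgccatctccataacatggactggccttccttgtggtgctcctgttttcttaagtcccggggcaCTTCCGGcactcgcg
SF3B5 chr6:144095574-144095823: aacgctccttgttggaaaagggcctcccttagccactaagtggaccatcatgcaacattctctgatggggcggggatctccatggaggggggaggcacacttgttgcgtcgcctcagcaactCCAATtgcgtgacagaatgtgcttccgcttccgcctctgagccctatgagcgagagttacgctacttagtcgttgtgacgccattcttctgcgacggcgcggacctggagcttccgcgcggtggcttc

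CCGGAAG was present in 6 of the 8 subunit promoters that the RefSeq table holds (SF3A1, SF3A2, SF3A3, SF3B2, SF3B4 and SF3B6), against 8.52% of 35116 promoters of the same length. The SF3B2 window lies wholly within the gene as deposited, whose start is further upstream than the RefSeq start, and it was counted all the same. The 6 include subunits that were higher, lower and not called. SF3B1 instead held CACGTG, found in 6.34% of promoters, and shared the NRF1 motif with SF3A2 (5.07% of promoters). CCAAT stood in the SF3B5 window alone, against 32.0% of promoters, and TATAAA in none of the 8, against 10.7%. The 35116 promoters were not matched to the subunits for GC content or expression. A match is a string of letters and not a shown binding site. SF3B3 and PHF5A were not matched.

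In HEK293T, 7 of the 10 subunits passed the test between the libraries labelled SNRPD2KO and Ctrl (adjusted p under 0.05, edgeR quasi-likelihood test with Benjamini-Hochberg adjustment over all genes). SF3A3, SF3B3 and SF3B5 were higher and SF3A2, SF3B1, SF3B4 and SF3B6 were lower. Of all 15882 genes tested, 53.3% passed in this comparison, 26.9% higher and 26.4% lower, so 7 of 10 lies near the background. The median log2 fold change was -0.14 over the 10 subunits and 0.02 over all genes. The groups did not overlap for 9 of the 10, where this held for 59.5% of all genes.

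**Figure D1:**
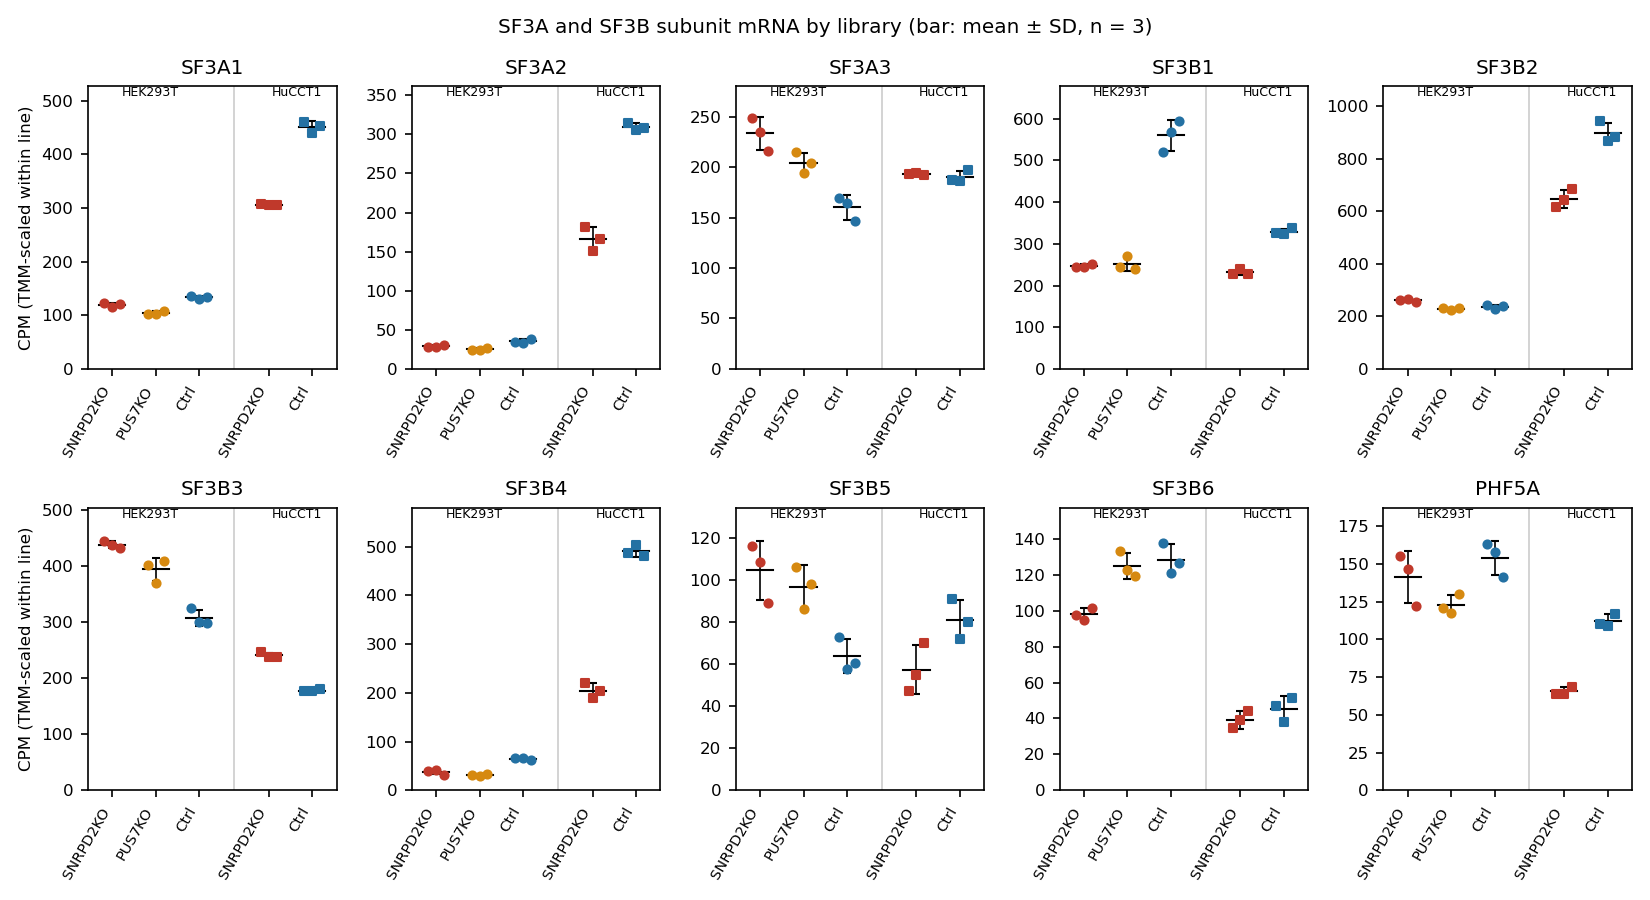
mRNA level of each subunit in every library, in CPM scaled within each line, with circles for HEK293T, squares for HuCCT1 and bars for the mean ± SD of 3 libraries. SF3B1 and SF3B4 lie lower in the libraries labelled SNRPD2KO than in Ctrl in both lines, SF3B3 lies higher in both, and SF3B5 is higher in HEK293T and lower in HuCCT1.

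SF3B1 (ENSG00000115524.17, chr2:197388515-197435079, minus strand, hg38) encodes the scaffold that grips the branch site helix and is the subunit most often mutated in blood cancers. In HEK293T its mRNA stood at 244, 245 and 253 CPM in the libraries labelled SNRPD2KO and at 245, 271 and 241 CPM in PUS7KO, against 520.0, 569 and 594 CPM in Ctrl. Every library of either knockout label lay under every Ctrl library. The log2 fold change against Ctrl was -1.18 (standard error 0.08, adjusted p = 1.0e-08) for SNRPD2KO and -1.15 (standard error 0.08, adjusted p = 1.8e-08) for PUS7KO, or 0.441 and 0.450 of the Ctrl level. Both comparisons share the same 3 Ctrl libraries. In HuCCT1, SF3B1 stood at 229, 239 and 227 CPM in the libraries labelled SNRPD2KO and at 326, 323 and 338 CPM in Ctrl. The groups again did not overlap, with a smaller log2 fold change of -0.51 (adjusted p = 6.4e-06).

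SF3B4 (ENSG00000143368.10, chr1:149923317-149927803, minus strand) encodes an RNA-binding subunit that contacts the pre-mRNA upstream of the branch site and is the gene of Nager syndrome. It stood at 39.4, 41.7 and 32.5 CPM in the HEK293T libraries labelled SNRPD2KO and at 30.8, 29.1 and 34.1 CPM in PUS7KO, against 66.5, 66.4 and 62.7 CPM in Ctrl. In HuCCT1 it stood at 220.5, 189 and 203 CPM in the libraries labelled SNRPD2KO, against 487, 504 and 481 CPM in Ctrl. No library of either knockout label reached a Ctrl library of its line. The log2 fold changes against Ctrl were -0.79 (adjusted p = 7.2e-06) for SNRPD2KO and -1.06 (adjusted p = 5.1e-07) for PUS7KO in HEK293T, and -1.26 (adjusted p = 5.2e-08) in HuCCT1. That last value, 0.417 of the Ctrl level, was the largest change of any subunit in any of the comparisons against Ctrl.

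SF3A2 (ENSG00000104897.10, chr19:2236824-2248655, plus strand) encodes a zinc-finger subunit of SF3A. It was the third subunit lower in both lines, at 27.7, 28.3 and 30.8 CPM in the HEK293T libraries labelled SNRPD2KO and 24.5, 24.7 and 26.6 CPM in PUS7KO, against 34.4, 33.6 and 38.2 CPM in Ctrl. In HuCCT1 it stood at 182, 151 and 167 CPM in the libraries labelled SNRPD2KO and at 314, 305 and 309 CPM in Ctrl. The groups did not overlap in any of these comparisons, and the change was larger in HuCCT1, at -0.89 (adjusted p = 8.3e-07), than in HEK293T, at -0.29 (adjusted p = 0.0200). For PUS7KO it was -0.48 (adjusted p = 0.00068). The HEK293T SNRPD2KO call was lost without the filter on low counts (-0.21, adjusted p = 0.210), without SNRPD2KO replicate 1 (adjusted p = 0.0966) or 2 (0.0783) and without Ctrl replicate 3 (0.0925), and the fold change was larger with a trend in transcript GC content removed (-0.67, adjusted p = 3.8e-05). The SF3A2 transcript is 66.6% GC, against a median of 48.3% over tested genes. SF3A2 shares 881 bases with PLEKHJ1 on the opposite strand, which was higher in the same comparisons (1.50, 1.29 and 1.22); whether counting used strand is not given in the sources used here, so SF3A2 is uncertain to that extent.

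SF3B3 (ENSG00000189091.13, chr16:70523791-70577670, plus strand) encodes a large propeller-shaped protein that supports SF3B1. It moved the other way from its partner, at 445, 437 and 431 CPM in the HEK293T libraries labelled SNRPD2KO and 402, 370.1 and 409 CPM in PUS7KO, against 324, 301 and 299 CPM in Ctrl. In HuCCT1 it stood at 246, 238 and 238 CPM in the libraries labelled SNRPD2KO and at 177, 176 and 180.4 CPM in Ctrl. SF3B3 was the only subunit called higher in both lines. Its log2 fold changes were 0.51 (adjusted p = 3.1e-05) for SNRPD2KO and 0.35 (adjusted p = 0.00099) for PUS7KO in HEK293T, and 0.44 (adjusted p = 1.6e-05) in HuCCT1. Over all 12708 genes tested in both lines, 24.2% were called in the same direction and 12% in opposite directions between SNRPD2KO and Ctrl. Of the subunits, SF3A2, SF3B1, SF3B3 and SF3B4 were called in the same direction and SF3B5 in opposite directions.

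SF3A3 (ENSG00000183431.12, chr1:37956975-37990075, minus strand), the other zinc-finger subunit of SF3A, stood at 249, 235 and 216 CPM in the HEK293T libraries labelled SNRPD2KO and 215, 194 and 204 CPM in PUS7KO, against 169.7, 164 and 146 CPM in Ctrl. It was higher without overlap in both (0.54, adjusted p = 5.0e-05 and 0.35, adjusted p = 0.00264). In HuCCT1 the levels were 193, 195 and 192 CPM in the libraries labelled SNRPD2KO and 187, 186 and 197 CPM in Ctrl, and the groups overlapped. The fold change there was 0.02 with a standard error of 0.05 and did not pass (adjusted p = 0.756). The annotated copies SF3A3P1 and SF3A3P2 each held under 1% of the SF3A3 counts.

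SF3B5 (ENSG00000169976.7, chr6:144094884-144095573, minus strand) encodes a small subunit bound to SF3B3, and is the only one of the 10 genes without an intron. It stood at 116, 108 and 89.0 CPM in the HEK293T libraries labelled SNRPD2KO and 106, 86.2 and 98.1 CPM in PUS7KO, against 72.8, 57.5 and 60.7 CPM in Ctrl. In HuCCT1 it stood at 47.4, 54.9 and 69.9 CPM in the libraries labelled SNRPD2KO and at 91.0, 72.1 and 80.0 CPM in Ctrl. SF3B5 thus lay above Ctrl in every HEK293T library labelled SNRPD2KO and below Ctrl in every HuCCT1 library labelled SNRPD2KO. The log2 fold changes were 0.71 (adjusted p = 6.5e-05) in HEK293T and -0.50 (adjusted p = 0.00623) in HuCCT1, with 0.60 (adjusted p = 0.00037) for PUS7KO. Relative to its mean, its spread was the widest of the 10 in HuCCT1 SNRPD2KO, at 57.4 ± 11.5 CPM (SD, n = 3), and the difference from Ctrl passed there in every alternative run.

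SF3B6 (ENSG00000115128.7, chr2:24067586-24076373, minus strand), also known as p14, encodes a small subunit, bound to SF3B1, that can be crosslinked to the branch adenosine. It stood at 97.4, 94.9 and 102 CPM in the HEK293T libraries labelled SNRPD2KO, at 133, 122 and 119 CPM in PUS7KO and at 138, 121 and 126 CPM in Ctrl. The libraries labelled SNRPD2KO lay below all 6 others, and PUS7KO overlapped Ctrl. The log2 fold change against Ctrl was -0.39 (adjusted p = 0.00073) for SNRPD2KO and -0.04 (adjusted p = 0.705) for PUS7KO, which did not pass. With the GC trend removed the SNRPD2KO value was smaller and still passed (-0.20, adjusted p = 0.0446). In HuCCT1, 34.6, 38.9 and 44.3 CPM in the libraries labelled SNRPD2KO overlapped 47.0, 38.0 and 51.5 CPM in Ctrl (-0.21, adjusted p = 0.143), and the difference passed only without Ctrl replicate 2 (-0.33, adjusted p = 0.0237).

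SF3A1 (ENSG00000099995.19, chr22:30331988-30356919, minus strand), which binds the U1 particle as well as U2, ranged over 115 to 123 CPM in the HEK293T libraries labelled SNRPD2KO, 103 to 108 CPM in PUS7KO and 129.6 to 136 CPM in Ctrl. These ranges did not overlap. The change passed for PUS7KO (-0.35, adjusted p = 0.00109) and not for SNRPD2KO (-0.16, adjusted p = 0.0850). The SNRPD2KO value did pass with RLE factors (-0.18, adjusted p = 0.0478), with the GC trend removed (-0.24, adjusted p = 0.00717) and with protein-coding genes only (-0.18, adjusted p = 0.0433). In HuCCT1 it ranged over 306 to 308 CPM in the libraries labelled SNRPD2KO and 441 to 460.5 CPM in Ctrl, a clear gap (-0.56, adjusted p = 2.0e-06).

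SF3B2 (ENSG00000087365.16, chr11:66050729-66069308, plus strand), the partner of SF3B4 in the complex, ranged over 253 to 265 CPM in the HEK293T libraries labelled SNRPD2KO, 223 to 232 CPM in PUS7KO and 229 to 242 CPM in Ctrl. Neither difference from Ctrl passed (0.14, adjusted p = 0.113 for SNRPD2KO and -0.05, adjusted p = 0.605 for PUS7KO), and the sign of the first turned with the GC trend removed (-0.02, adjusted p = 0.851). In HuCCT1 it was lower, at 616 to 683 CPM in the libraries labelled SNRPD2KO and 868 to 942 CPM in Ctrl (-0.47, adjusted p = 2.7e-05).

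PHF5A (ENSG00000100410.8, chr22:41459717-41468692, minus strand), a small zinc-finger subunit at the branch adenosine pocket, ranged over 122 to 155 CPM in the HEK293T libraries labelled SNRPD2KO, 117 to 129.9 CPM in PUS7KO and 141 to 163 CPM in Ctrl. SNRPD2KO overlapped Ctrl (-0.13, adjusted p = 0.277) and PUS7KO did not (-0.33, adjusted p = 0.00849). In HuCCT1 it was lower, at 64.0 to 68.6 CPM in the libraries labelled SNRPD2KO and 109 to 117 CPM in Ctrl (-0.77, adjusted p = 1.0e-06).

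**Figure D2:**
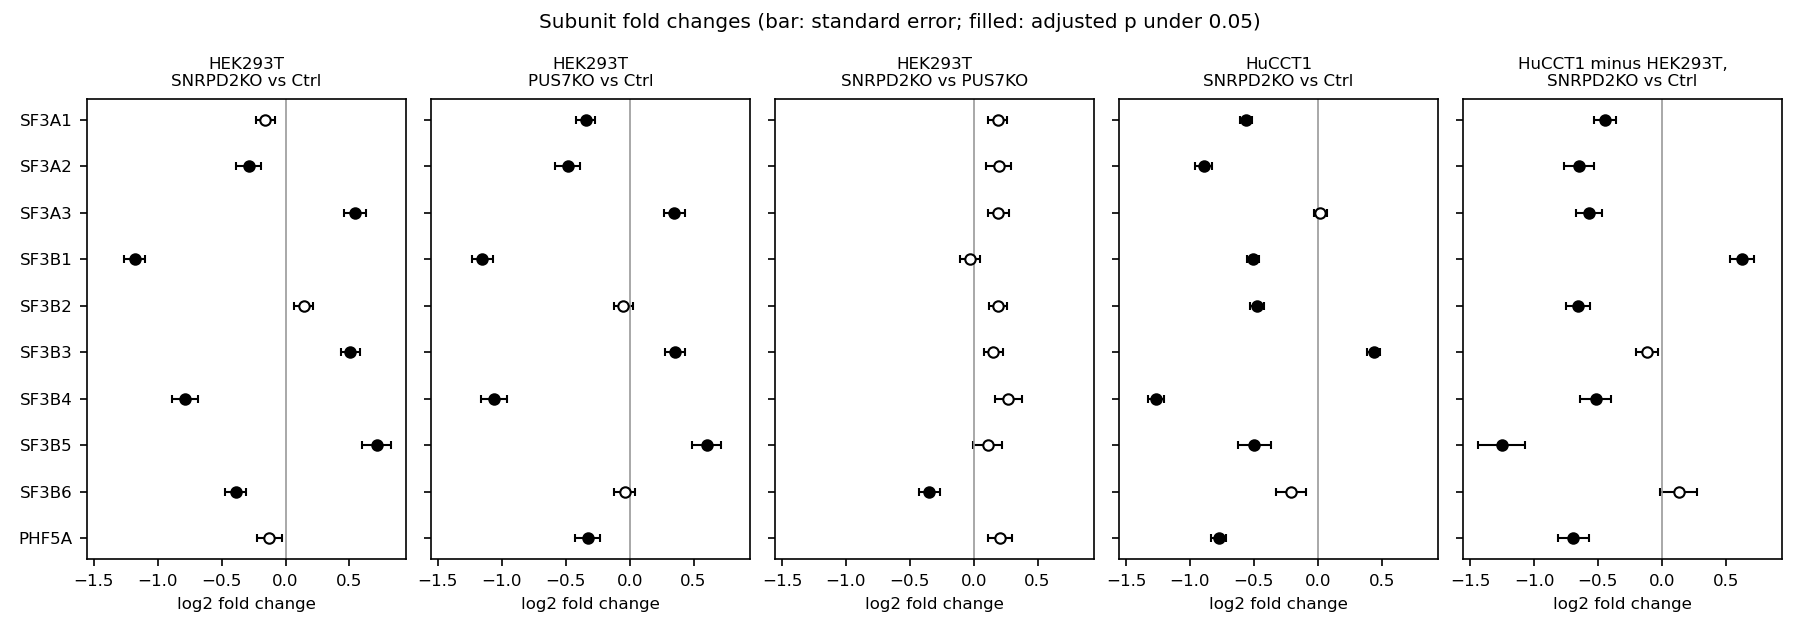
Log2 fold change of each subunit in the 5 comparisons, with the standard error as bars and filled points where the adjusted p was under 0.05; a positive value means higher in the group named first. The 2 HEK293T panels against Ctrl share the same Ctrl libraries. They run alike for most subunits, except SF3B6 (-0.39 and -0.04) and SF3B2 (0.14 and -0.05). SNRPD2KO against PUS7KO has 1 filled point (SF3B6), and the HuCCT1 panel has filled points lower for 7 subunits and higher for SF3B3.

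For PUS7KO against Ctrl in HEK293T, 8 of the 10 subunits passed, 3 higher (SF3A3, SF3B3 and SF3B5) and 5 lower (SF3A1, SF3A2, SF3B1, SF3B4 and PHF5A), where 49.4% of all genes passed, 25.6% higher and 23.8% lower. The median over the subunits was -0.19, against 0.01 over all genes. The groups did not overlap for 8 subunits, where 57.2% of all genes showed this. Each of the 8 calls passed in all 15 alternatives run.

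The direct comparison of the HEK293T libraries labelled SNRPD2KO with PUS7KO found 1 subunit, SF3B6, past the threshold (-0.35, adjusted p = 0.0274), where 4.77% of all genes passed and 3.2% were lower. SF3B6 was 98.0 ± 3.43 CPM in SNRPD2KO and 125 ± 7.20 CPM in PUS7KO (SD, n = 3 each). That call was lost with the GC trend removed (-0.24, adjusted p = 0.144), without SNRPD2KO replicate 1 (adjusted p = 0.142) or 2 (0.147) and without PUS7KO replicate 1 (0.0980) or 2 (0.0972). The other 9 ranged between -0.03 for SF3B1 and 0.27 for SF3B4. SF3B4 (0.38, adjusted p = 0.0209) and PHF5A (0.30, adjusted p = 0.0342) passed when SNRPD2KO replicate 3 was left out. Levels did not overlap between the groups for 6 subunits, against 25.2% of all genes, and the median over the 10 was 0.19, against 0.01 over all genes.

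In HuCCT1, 8 of the 10 subunits passed between the libraries labelled SNRPD2KO and Ctrl, where 57.2% of all 15007 genes passed. The split was 1 higher (SF3B3) and 7 lower (SF3A1, SF3A2, SF3B1, SF3B2, SF3B4, SF3B5 and PHF5A), where 28.4% of all genes were lower and 28.8% higher. The median over the subunits was -0.50, against 0.00 over all genes, and SF3A3 and SF3B6 did not pass. The groups did not overlap for 8 subunits, against 63.5% of all genes. All 8 calls passed in each of the 14 alternatives run. In bulk RNA, fewer cells of a kind and less RNA per cell cannot be told apart.

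The difference between the lines was tested directly, as the log2 change between SNRPD2KO and Ctrl in HuCCT1 minus that in HEK293T, over the 12 libraries in 1 fit. It passed for 8 of the 10 subunits, where 40.7% of 17617 genes passed. The difference was negative for SF3A1 (-0.45), SF3A2 (-0.65), SF3A3 (-0.57), SF3B2 (-0.66), SF3B4 (-0.52), SF3B5 (-1.25) and PHF5A (-0.69), where 20.9% of all genes passed as negative and 19.8% as positive. All 3 SF3A subunits thus had a lower fold change in HuCCT1 than in HEK293T. The difference was positive for SF3B1 alone (0.63, adjusted p = 3.5e-05), whose reduction was larger in HEK293T, and it was smaller with the GC trend removed (0.32, adjusted p = 0.00747). The largest was that of SF3B5 (standard error 0.19, adjusted p = 3.4e-05), whose direction differed between the lines. SF3B3 (-0.12, adjusted p = 0.314) and SF3B6 (0.13, adjusted p = 0.496) did not pass, which does not show that the lines acted alike. The lines also differ in culture medium, depth and RN7SL1 share, and these cannot be told apart from the line.

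Ratios of counts between subunits within a library do not depend on how libraries are scaled. They were not corrected for length, so only their difference between groups is read. SF3B3 over SF3B1 was 1.77 ± 0.0582 in the HEK293T libraries labelled SNRPD2KO and 1.57 ± 0.178 in PUS7KO, against 0.552 ± 0.0634 in Ctrl (SD, n = 3 each). In HuCCT1 it was 1.04 ± 0.0404 in the libraries labelled SNRPD2KO and 0.541 ± 0.00623 in Ctrl. The Ctrl ratios of the lines thus lay close together, and every knockout-labelled library lay above every Ctrl library.

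Within SF3A, SF3A3 over SF3A1 was 1.95 ± 0.138 in the HEK293T libraries labelled SNRPD2KO and 1.95 ± 0.113 in PUS7KO, against 1.20 ± 0.0980 in Ctrl, and in HuCCT1 0.629 ± 0.00551 in the libraries labelled SNRPD2KO and 0.422 ± 0.0138 in Ctrl. The SF3A3 to SF3A1 ratio thus shifted the same way in both lines, although SF3A3 itself passed in HEK293T alone. SF3A2 over SF3A1 overlapped between the HEK293T libraries labelled SNRPD2KO (0.225 to 0.255) and Ctrl (0.253 to 0.284). It was lower than Ctrl without overlap in PUS7KO (0.238 to 0.246) and in HuCCT1 SNRPD2KO (0.494 to 0.592, against 0.680 to 0.693). SF3B4 over SF3B2, subunits that bind each other, was 0.145 ± 0.0150 in SNRPD2KO and 0.137 ± 0.00955 in PUS7KO, against 0.276 ± 0.0137 in HEK293T Ctrl. In HuCCT1 it was 0.317 ± 0.0355 in the libraries labelled SNRPD2KO and 0.547 ± 0.0321 in Ctrl. Every knockout-labelled library lay below every Ctrl library of its own line.

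SF3B5 over SF3B3 divided the lines. It was 0.238 ± 0.0287 in the HEK293T libraries labelled SNRPD2KO and 0.246 ± 0.0164 in PUS7KO, against 0.206 ± 0.0168 in Ctrl, with SNRPD2KO and Ctrl overlapping. In HuCCT1 it was 0.239 ± 0.0509 in the libraries labelled SNRPD2KO and 0.455 ± 0.0535 in Ctrl, without overlap.

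**Figure D3:**
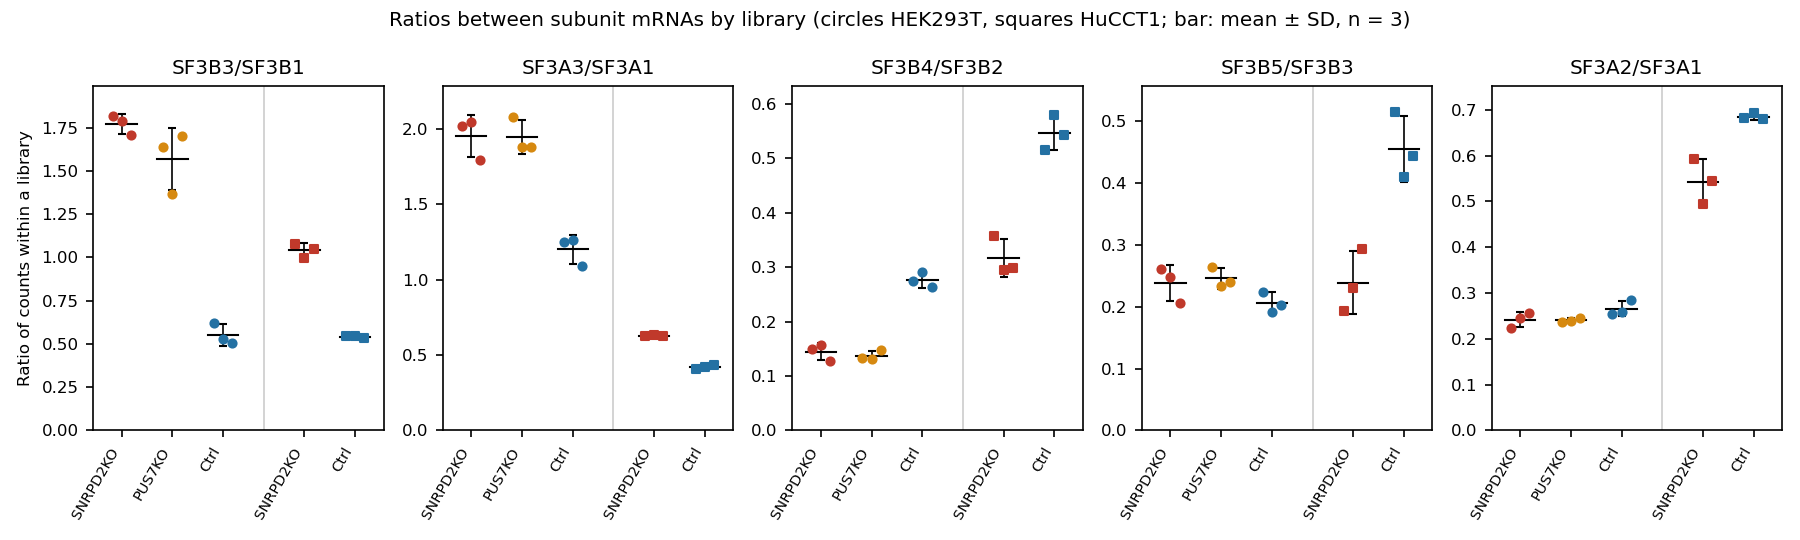
Ratio of counts between pairs of subunit mRNAs in each library, with bars for the mean ± SD of 3 libraries. SF3B3 over SF3B1 and SF3A3 over SF3A1 are higher in the knockout-labelled libraries than in Ctrl of the same line, and SF3B4 over SF3B2 is lower.

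Levels were compared between subunits as CPM per kb of annotated exon. In the HEK293T libraries labelled SNRPD2KO they were led by SF3B5 (151 ± 20.2), PHF5A (130.0 ± 15.8) and SF3B6 (127 ± 4.45), whose ranges overlapped, while in Ctrl the order was SF3B6 (167 ± 11.3), PHF5A (142 ± 10.3) and SF3B5 (91.9 ± 11.6) without overlap. SF3B2, SF3A3, SF3B3, SF3B1, SF3A1, SF3B4 and SF3A2 followed in that order in SNRPD2KO and in PUS7KO, and SF3A2 had the lowest mean in all 3 HEK293T groups. In SNRPD2KO the ranges of SF3B4 and SF3A2 overlapped. SF3B1 had rank 7 in SNRPD2KO and PUS7KO, at 30.3 ± 0.582 and 30.9 ± 1.99 CPM per kb, and rank 5 in Ctrl, at 68.8 ± 4.59, where it overlapped SF3B2. The highest and lowest subunits differed 10.2-fold in SNRPD2KO, 12.6-fold in PUS7KO and 9.25-fold in Ctrl.

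HuCCT1 had another order of means, the same for the first 6 in both groups: SF3B2, SF3B4, SF3A2, SF3B5, PHF5A and SF3A1. SF3B2 led with 196 ± 10.2 CPM per kb in the libraries labelled SNRPD2KO and 272 ± 11.8 in Ctrl, and SF3B4 followed with 98.0 ± 7.54 and 235 ± 5.80. SF3B4 and SF3A2 overlapped in SNRPD2KO and did not in Ctrl. SF3A2 also overlapped SF3B5, and PHF5A overlapped SF3A1, in SNRPD2KO, while SF3B5 overlapped PHF5A in Ctrl. The order of these neighbours is not resolved there. SF3B1 and SF3B3 were the lowest there, with SF3B3 at 24.8 ± 0.460 in SNRPD2KO and 18.3 ± 0.222 in Ctrl. The spread from highest to lowest was 7.90-fold in SNRPD2KO and 14.8-fold in Ctrl. Since the tables were scaled separately, only the order within a line is read. That order also depends on the exon length used, which joins the exons of all basic annotated transcripts of a gene. It was 9720 bases for SF3B3 and 8158 bases for SF3B1.

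**Figure D4:**
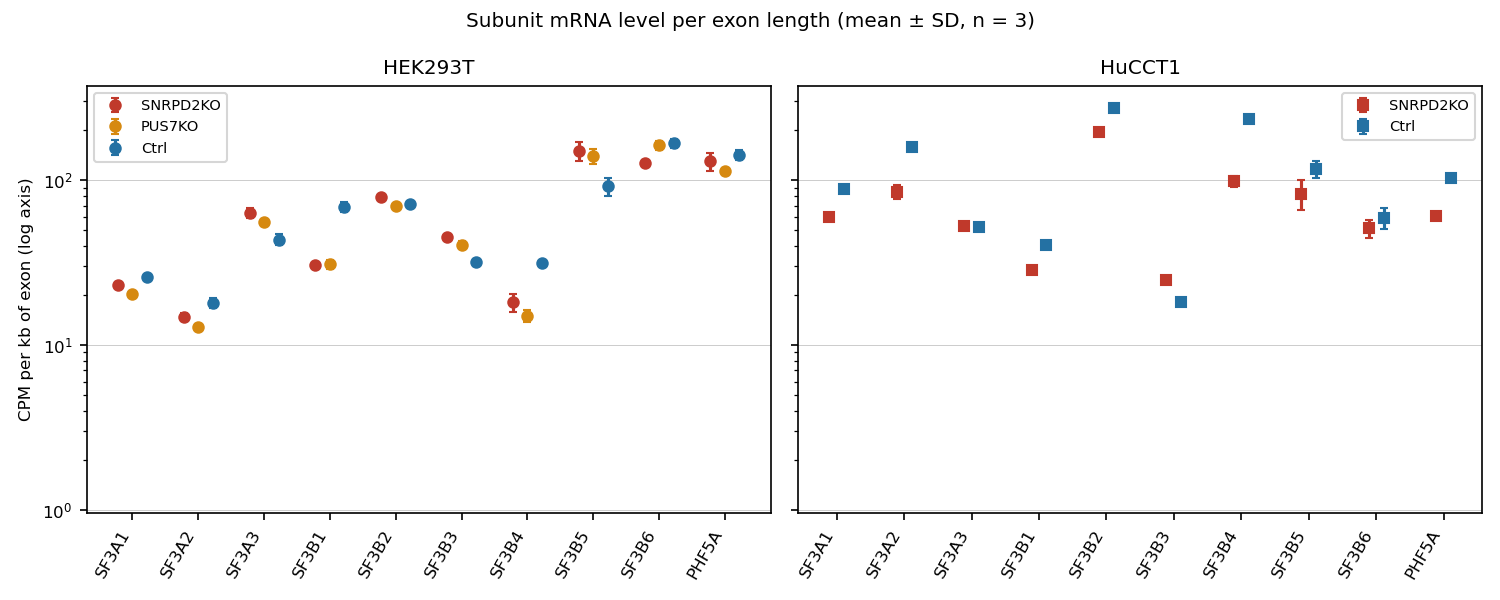
Subunit mRNA level in CPM per kb of annotated exon on a log axis, mean ± SD of 3 libraries, HEK293T on the left and HuCCT1 on the right. SF3A2 and SF3B4 are among the lowest in HEK293T and among the 3 highest in HuCCT1.

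The other proteins of the U2 particle and the factors that recruit it moved in both directions as well. In the HEK293T libraries labelled SNRPD2KO, 3 of 20 tested were higher than in Ctrl and 11 lower, with a median of -0.31. Over all genes 26.9% were higher and 26.4% lower, with a median of 0.02. Of those that passed, DDX46 (-1.74), the helicase that remodels U2 for branch site binding, was lowest. SMNDC1 (-0.96), ZRSR2 (-0.80), which reads minor introns, and U2SURP (-0.76) followed. U2AF1 (-1.16) lay between DDX46 and SMNDC1 and did not pass (adjusted p = 0.0538), though it did in some alternatives, such as limma voom (0.0286). RBM10 (0.67) and RBM5 (0.29), related regulators of exon use, and U2AF2 (0.36), which binds the polypyrimidine tract, were higher. The U2SURP (-0.16, adjusted p = 0.0925) and U2AF2 (0.07, adjusted p = 0.456) calls were lost with the GC trend removed, and the RBM5 call was lost when replicate 2 of SNRPD2KO (adjusted p = 0.0937) or of Ctrl (0.0732) was left out. SMNDC1 (-0.41) and RBM10 (0.41) moved less with the GC trend removed and still passed.

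In PUS7KO 1 of 20 was higher than in Ctrl and 9 lower, with a median of -0.30. The 10 that passed are close to the 49.4% of all genes that did, 25.6% of all genes being higher and 23.8% lower. DDX46 (-1.41), GPATCH1 (-0.70) and SMNDC1 (-0.67, or -0.44 with the GC trend removed) were lower. U2AF1 (-2.10, standard error 0.52) was lower too but is uncertain: its libraries ranged over 2.19 to 19.6 CPM in PUS7KO and 19.9 to 53.0 CPM in Ctrl, its value was -3.82 without PUS7KO replicate 1, and it has a near-identical annotated copy. RBM10 was higher (0.31), a call lost with the GC trend removed (0.18, adjusted p = 0.0750) and without PUS7KO replicate 1 (adjusted p = 0.0651). Between the libraries labelled SNRPD2KO and PUS7KO, 3 of the 20 passed, where 4.77% of all genes did: PUF60 (0.65, adjusted p = 0.0291) and RBM10 (0.36, adjusted p = 0.0374) were higher and U2SURP (-0.48, adjusted p = 0.0298) was lower. All 3 calls were lost with the GC trend removed, at an adjusted p of 0.116, 0.154 and 0.471, and without SNRPD2KO replicate 1, at 0.172, 0.170 and 0.176. They were also lost without PUS7KO replicate 2, at 0.143, 0.178 and 0.162. PUF60 and U2SURP were lost without PUS7KO replicate 1 (0.0579 and 0.0623), RBM10 and U2SURP without SNRPD2KO replicate 2 (0.185 and 0.154), and RBM10 without PUS7KO replicate 3 (0.0691).

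In HuCCT1, 6 of 21 of these factors were higher in the libraries labelled SNRPD2KO and 9 lower, with a median of -0.05, against -0.50 for the SF3A and SF3B subunits. Over all genes 28.8% were higher and 28.4% lower, with a median of 0.00. SNRPA1 (-1.55), the U2 A′ protein that sits on the U2 RNA, SMNDC1 (-1.13), SF1 (-0.89), which binds the branch site before U2, and GPATCH1 (-0.81) were lower. DDX42 (1.22), a helicase that contacts SF3B1, RBM5 (0.81) and GPKOW (0.60) were higher. RBM17 (0.33, adjusted p = 0.0443) was also higher, a call lost with upper quartile factors (adjusted p = 0.0521) and when replicate 2 or 3 of SNRPD2KO or of Ctrl was left out (adjusted p = 0.103, 0.115, 0.176 and 0.0956). GPKOW was listed at 0 in every HEK293T library, so its difference between the lines could not be tested. Of the other 20, 10 differed between the lines, where 40.7% of all genes did. In HuCCT1 minus HEK293T the largest positive differences were those of DDX46 (1.17), DDX42 (1.01), U2SURP (0.81) and RBM17 (0.61), with U2SURP lost when the GC trend was removed (0.09, adjusted p = 0.518) and DDX46 smaller (0.66). The largest negative ones that passed were those of SNRPA1 (-1.38), SF1 (-0.71), RBM10 (-0.46, or -0.29 with the GC trend removed) and DHX15 (-0.27, or -0.45). The SMNDC1 difference (-0.21, adjusted p = 0.189) did not pass, though it did with the GC trend removed (-0.88, adjusted p = 1.4e-05).

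Other spliceosome lists were counted in the same way, against all-gene shares of 26.9% higher and 26.4% lower for the HEK293T libraries labelled SNRPD2KO, 25.6% and 23.8% for PUS7KO, and 28.8% and 28.4% for the HuCCT1 libraries labelled SNRPD2KO. Of 16 U4/U6.U5 proteins listed, 14 were tested. PRPF8 (group means 0 to 0.0733 CPM) and PRPF31 (0.242 to 0.670 CPM) were nearly without counts in both lines, for a reason that was not tested. Of the 14, 4 were higher and 4 lower in the HEK293T libraries labelled SNRPD2KO than in Ctrl (median 0.11), 3 higher and 5 lower in PUS7KO (median -0.06), and 1 higher and 12 lower in the HuCCT1 libraries labelled SNRPD2KO (median -0.57). PRPF3, which binds the U4/U6 RNA, was the lowest of this list in each, at -1.23, -1.44 and -1.82, and its partner PRPF4 was next, with -0.88 in the HEK293T and -1.35 in the HuCCT1 libraries labelled SNRPD2KO. The highest in HEK293T were TXNL4A (0.61 in SNRPD2KO and 0.61 in PUS7KO) and EFTUD2 (0.54 and 0.35), a GTPase of the U5 particle. The 4 and 4 of 14 in HEK293T are near the shares over all genes.

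Of the NTC and branching factors, which act after U2 has bound, and against the same all-gene shares, 2 of 21 were higher and 12 lower in the HEK293T libraries labelled SNRPD2KO (median -0.34), 2 and 12 in PUS7KO (median -0.29), and none of 22 higher and 14 lower in HuCCT1 (median -0.23). PRPF18 was lowest in HEK293T, at -1.28 in SNRPD2KO and -1.24 in PUS7KO, and RBM22 in HuCCT1, at -1.18. PRPF19, the core of the NTC (0.57 and 0.34), and PPIE (0.71 and 0.61) were the members higher in both HEK293T comparisons. The U11/U12 particle shares the SF3B proteins with U2. Of its 10 own proteins, 3 were higher and 5 lower in the HEK293T libraries labelled SNRPD2KO (median -0.39), 2 and 5 in PUS7KO (median -0.37), and 1 and 7 in HuCCT1 (median -0.44), the same HuCCT1 count as for the 10 SF3A and SF3B subunits. RNPC3 was the lowest of them in each, at -1.35, -1.24 and -1.89. Of the 3 U1 proteins, SNRPA was higher in each (1.10, 0.96 and 0.21), while SNRNP70 (-0.77) and SNRPC (-0.52) were lower in HuCCT1.

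**Figure D5:**
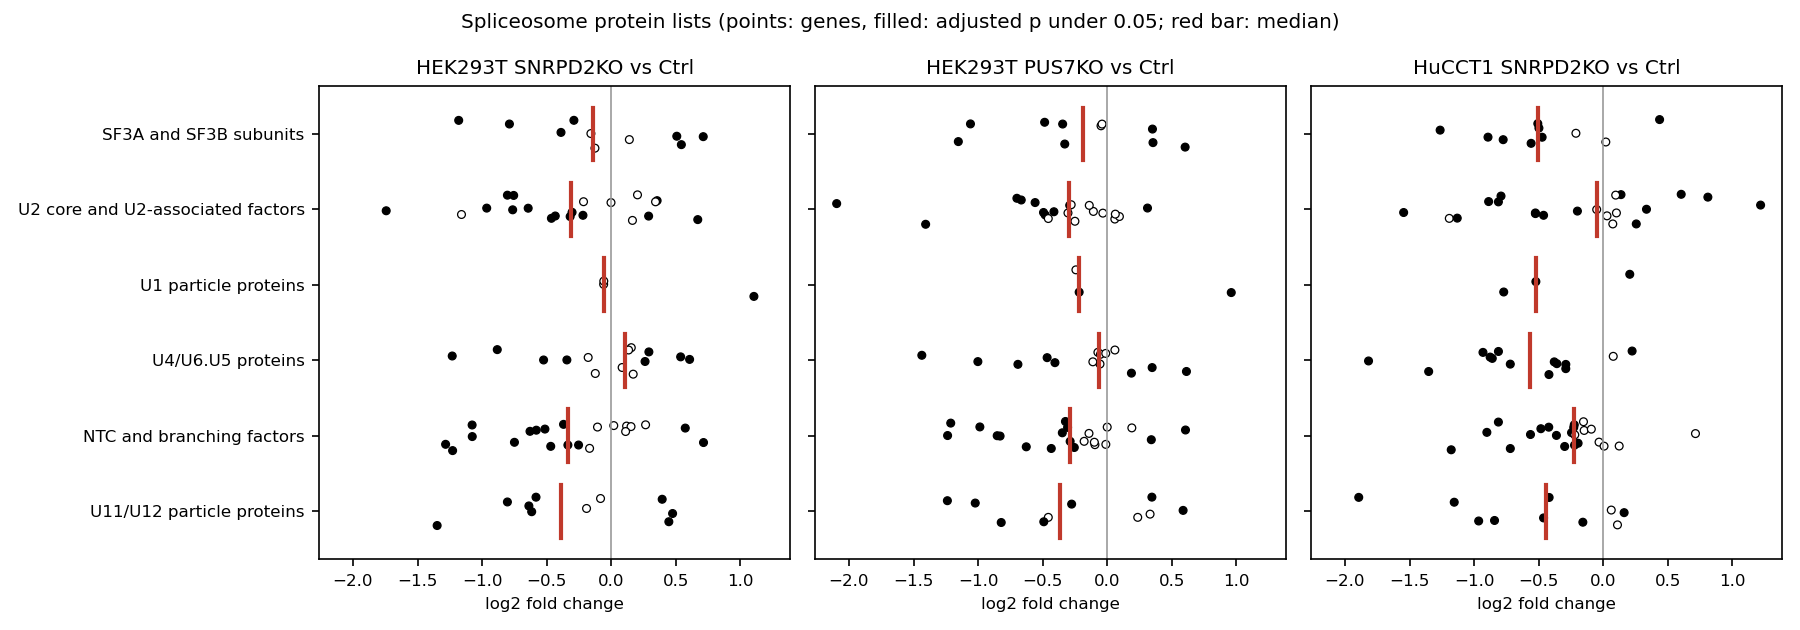
Log2 fold change of single genes in 6 spliceosome lists, with filled points where the adjusted p was under 0.05 and a red bar at the list's median, in the 3 comparisons against Ctrl. In HuCCT1 the medians are -0.50 for the SF3A and SF3B subunits, -0.57 for the U4/U6.U5 proteins, -0.52 for the 3 U1 proteins, -0.44 for the U11/U12 proteins, -0.23 for the NTC and branching factors and -0.05 for the other U2 factors.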

How the data were processed

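The authors deposited a table of whole-number counts per gene for each line, without normalization. Per the submitters' processing notes, cutadapt 4.2, HISAT2 2.2.1 and RSEM were used with build hg38; their roles, the annotation release and the use of strand are not given in the sources used here. Counts of genes that overlap others on the opposite strand are therefore uncertain, and some overlaps are not reported here. Columns were matched to libraries through the sample descriptions.

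Each line was fitted separately in R 4.3.3 with edgeR 4.0.16 (TMM factors, minimum count 10 and minimum total 15, quasi-likelihood F test, two-sided), which left 15882 genes in HEK293T and 15007 in HuCCT1, with biological coefficients of variation of 10.8% in the first line and 10.1% in the other. The difference between lines was an interaction over 12 libraries and 17617 genes. Benjamini-Hochberg adjustment ran over all genes tested, with calls at an adjusted p under 0.05. The pipeline was tested on simulated counts. Exon length, intron number and transcript GC content came from GENCODE 29, and promoters from RefSeq.

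The members and lists were chosen with earlier results of these data known. All 10 subunits are named; of the other U2 factors, up to 4 per direction and comparison past the threshold by size of change, and of other lists at most 2 examples. Alternatives were RLE and upper quartile factors, DESeq2 1.42.0, limma voom (limma 3.58.1), no filter on low counts, a replicate block, a per-library trend in GC content removed, a fit to the 2 compared groups, and leaving out each library; protein-coding genes only was added after seeing the data.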

Additional observations from a re-analysis of the deposited data

Results flagged for a closer look

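The change between the libraries labelled SNRPD2KO and Ctrl differed between the lines for 8 subunits by the test of the difference itself (edgeR interaction, HuCCT1 minus HEK293T). It was -1.25 for SF3B5, -0.69 for PHF5A, -0.66 for SF3B2, -0.65 for SF3A2, -0.57 for SF3A3, -0.52 for SF3B4, -0.45 for SF3A1 and 0.63 for SF3B1. The adjusted p ran between 2.5e-05 for SF3B2 and 0.00219 for SF3B4. SF3B5 is the only one of the 8 that was called in both lines in opposite directions. Of all genes, 40.7% passed this test.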

How the results depend on the processing

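Over the 5 comparisons and all alternatives, 775 of 790 subunit values stayed on their side of the threshold, 9 lost the call, 6 gained it and 0 called values reversed. The count of subunits called moved by more than 1.5 times in SNRPD2KO against PUS7KO only, with 1 as reported, 0 with the GC trend removed and 0 to 3 with 1 library left out. Genes called there were 758, 1292 without the filter, 67 with the GC trend removed, 464 with the 2 groups alone and 22 to 1891 with 1 library left out, and the share of calls that were higher was 32.8%, or 53.7% with the GC trend removed. With 1 library left out, subunits called were 6 to 7, 8 to 8, 8 to 9 and 8 to 8 in SNRPD2KO against Ctrl and PUS7KO against Ctrl in HEK293T, in HuCCT1 and between lines. Among 1377 values of other named genes 1279 stayed on their side, 49 lost the call, 48 gained it and 1 reversed, which was PUF60 in HuCCT1, at 0.07 with all libraries, -1.74 (adjusted p = 0.0035) without SNRPD2KO replicate 1 and -1.74 to 0.72 over all libraries left out; the cause was not tested. Without the filter the median of all genes shifted to -0.19 in HEK293T SNRPD2KO against Ctrl and -0.14 in PUS7KO against Ctrl, and the SF3A1 and SF3A2 values there are read against it.

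Same-numbered libraries did not deviate together more than others. Correlations of deviations were -0.09 to 0.04 over 12 same-numbered pairs and -0.09 to 0.13 over 24 other pairs. This cannot show whether same-numbered libraries were prepared together. With the replicate block, subunits called were 7, 8, 1, 8 and 8 in the 5 comparisons, the same numbers as reported, and genes called were 8320, 7674, 560, 8346 and 6933. SF3A2 had the fewest counts of the subunits in HEK293T. Its call in SNRPD2KO against Ctrl held in 11 of 15 alternatives, and that of SF3B6 in SNRPD2KO against PUS7KO in 10 of 15.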

Other observations

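RNU1-1, a gene of the U1 RNA, was higher in the HEK293T libraries labelled SNRPD2KO than in Ctrl (0.75, adjusted p = 0.00293) and lower in HuCCT1 (-1.31, adjusted p = 0.00011), with a difference between lines of -2.10 (adjusted p = 2.2e-05). RNU4-1, a gene of the U4 RNA, was higher in both, at 0.99 (adjusted p = 0.00026) in HEK293T and 1.27 (adjusted p = 0.00248) in HuCCT1. RNU1-1 had group means of 130 to 218 CPM in HEK293T and only 2.73 to 6.80 CPM in HuCCT1. For RNU4-1 the group means were 315 to 627 CPM in HEK293T and 4.68 to 11.3 CPM in HuCCT1. Both genes belong to families with near-identical copies, so their counts are uncertain. RNU2-1, a gene of the U2 RNA, was listed at 0 in every HEK293T library, and no level of the U2 RNA is given here.

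In the pattern of log2 CPM over the 15 libraries, centred within each line, the genes most like SF3B1 of 8730 searched were BCLAF1 (Pearson r = 0.990), ACTR3 (0.988), FUBP1 (0.988), SPEN (0.987) and NUP50 (0.987). Those most like the mean of the 10 subunits were SAP18 (0.982), ZFAND2A (0.980), RPA2 (0.978), RBBP5 (0.977) and LMAN2 (0.977). These values describe the libraries, which share group and line.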
